A study of Oryctolagus cuniculus with 10 samples.

Results

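ENSOCUG00000009644 is 1 of the 13429 rabbit gene identifiers measured by RNA sequencing in the left upper lobe of fetal lungs. It was chosen from these same values, because its level was low after a diaphragmatic hernia and close to the control level when the trachea was occluded afterwards. The files give the Ensembl identifier without a symbol, and no identifier of the table could be matched to the reference gene list used here, so the name, position, sequence and function of the gene are not reported here. The genes named beside it are known by identifier only for the same reason.

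In congenital diaphragmatic hernia, abdominal organs enter the chest through a gap in the diaphragm and the lung beneath them stays small, with fewer airway branches and thick-walled vessels. The fetal lung secretes a fluid that leaves through the trachea and whose pressure is one of the drives of lung growth. Blocking the trachea keeps this fluid in, stretches the lung and makes it grow, which is the basis of fetal tracheal occlusion as a treatment. Stretch is also known to affect the balance of alveolar epithelial cell types, so genes of several cell types can differ between such lungs.

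The study used New Zealand rabbit fetuses in 4 groups, all collected at E30.5 (embryonic day). Controls (n = 3) had neither operation, as far as the labels say, and the labels do not mention sham surgery. The hernia group (n = 2) had a left diaphragmatic hernia made at E25, the occlusion group (n = 2) had the trachea occluded at E27 without a hernia, and the group with hernia and occlusion (n = 3) had the hernia at E25 and the occlusion at E27. Litter, sex and pooling are not stated, and nothing says that libraries of a group came from separate litters. The p-values below set each change against the spread between these libraries, which the tests treat as independent. Library totals lay between 16.4 and 22.2 M counts. The marker genes of lung cell types could not be looked up by identifier, so the labelled tissue was not checked against them.

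Levels are given as CPM, the count of the gene divided by the total of its library and scaled to a total of 1000000. ENSOCUG00000009644 stood at 128, 162 and 157 CPM in the 3 controls, a mean of 149 ± 18.1 (SD). The hernia libraries had 35.5 and 25 CPM, a mean of 30.3 ± 7.44 (SD, n = 2), which is 20.3% of the control mean. Both hernia libraries lay far under every control. With occlusion alone the level was 108 and 91.1 CPM (99.6 ± 12, SD, n = 2), and with hernia and occlusion it was 110.0, 168 and 96.9 CPM (125 ± 37.8, SD, n = 3). All 5 occluded libraries lay above both hernia libraries, and 4 of the 5 lay below the lowest control. The exception was replicate 2 of hernia with occlusion, the highest of the 10 libraries. The tissue was sequenced in bulk, so fewer cells that express the gene and less of its RNA per cell cannot be told apart.

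**Figure D1:**
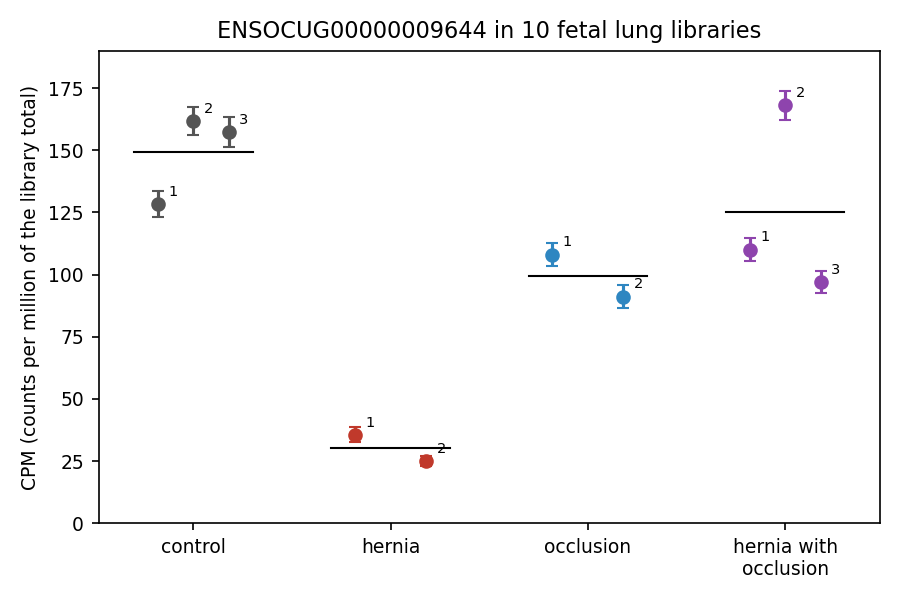
CPM of ENSOCUG00000009644 (vertical axis) in each of the 10 libraries by group (horizontal axis); points are libraries with their replicate number, bars are 95% Poisson intervals for counting error only, and black lines are group means. The hernia libraries sit at 35.5 and 25 CPM, and the other 8 lie between 91.1 and 168 CPM.

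Counting error is small beside these differences. The gene had 582 and 556 counts in the hernia libraries and between 1606 and 3252 in the others. The 95% Poisson interval was 32.7 to 38.5 CPM in hernia replicate 1 and 23.0 to 27.2 CPM in replicate 2, so these replicates differed from each other beyond counting error. Between libraries of a group the coefficient of variation was 12.1% among controls, 24.6% in the hernia group, 12% after occlusion and 30.3% after both operations, against 1.91% to 4.19% from counting alone. The hernia libraries had the smallest and the largest library total, 16.4 and 22.2 M, and the gene was low in both.

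The differences that led to the choice of the gene are given without a test. On the log2(CPM + 0.5) scale the hernia mean minus the control mean was -2.30 ± 0.27 (SE), a 4.91-fold lower level. Of the 10970 other genes with a mean of at least 5 CPM, 12 lay at least as far below control in the hernia group, and the median gene stood at 0.03. In 14.5% of 13379 genes both hernia libraries lay below all controls, so groups that do not overlap are common here. The mean with hernia and occlusion was 2.01 ± 0.35 (SE) above the hernia mean, a 4.02-fold higher level, and 8 other genes were at least as far above. Every library with both operations lay above both hernia libraries, as in 20.4% of genes. The step up was 87.5% of the step down on the log2 scale.

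Hernia with occlusion against control is the remaining difference of that pattern. It was -0.29 ± 0.26 (SE, log2), and the ranges of the 2 groups overlapped, 96.9 to 168 CPM against 128 to 162 CPM. A difference at least as far below control was present in 13.0% of other genes. Replicate 2 of hernia with occlusion weighed on this value, which was -0.52 without it and -0.12 without replicate 3. Whether the level fully reached that of controls cannot be read from 3 libraries with this spread.

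The hernia libraries carry the title stems M38 and M39, and those of the other 8 lie between M83 and M98. The labels do not explain the stem. A difference that follows it cannot be told apart from hernia against control, or from hernia with occlusion against hernia. The ending of the title also follows the group in part. Every control title ends in L3 and every occlusion title in R3, and no other title has these endings. The labels do not explain the ending either. A difference that follows it cannot be told apart from any comparison made with control or with occlusion alone. The stems M83 and M88 each occur in a pair of groups. In M83 the control had 162 CPM and the library with hernia and occlusion had 110.0 CPM, a 1.47-fold lower level after both operations. In M88 the library with occlusion had 91.1 CPM and that with hernia and occlusion had 96.9 CPM, which differ by less than the spread within either group.

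The occlusion libraries were not part of the pattern that chose the gene, so comparisons with them were tested. The groups on the other side were used in the choice, which favours high levels in control and in hernia with occlusion. That can push occlusion against control down and hernia with occlusion against occlusion up, and the p-values do not allow for it. Both occlusion libraries lay below all 3 controls, which was the case in 10.9% of genes, and the lowest control was 1.19-fold above the higher occlusion library. The log2 change of occlusion against control in edgeR's quasi-likelihood test over all 13379 genes was -0.58 ± 0.25 (SE). It did not pass, with an unadjusted p of 0.0426 and an adjusted p of 0.852 by edgeR. An unadjusted p under 0.05 with a lower level was found for 1.89% of genes, and 0.0149% of genes passed after adjustment in either direction. DESeq2 gave a change of -0.58 with an adjusted p of 0.728, where 0.164% of genes passed. The adjusted p over 16 alternatives ran from 0.584 to 0.999. The lowest came without occlusion replicate 2, where the lone occlusion library is assumed to vary like the other groups.

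Hernia with occlusion against occlusion asks whether a hernia made a difference among occluded lungs. The groups overlapped, with replicate 3 of hernia with occlusion below occlusion replicate 1. The log2 change by edgeR was 0.30 ± 0.24 (SE), with an unadjusted p of 0.248 and an adjusted p of 0.975. No gene was called by edgeR in this comparison (0.0% of 13379). At an unadjusted p under 0.05, 162 genes (1.21%) were higher and 471 lower. DESeq2 called 24 genes (0.179%), and this gene had an adjusted p of 1.0 there. The positive value rests on replicate 2 of hernia with occlusion, since it was 0.03 without that library. It was 0.19 without occlusion replicate 2, and 0.44 without replicate 3 of hernia with occlusion.

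**Figure D2:**
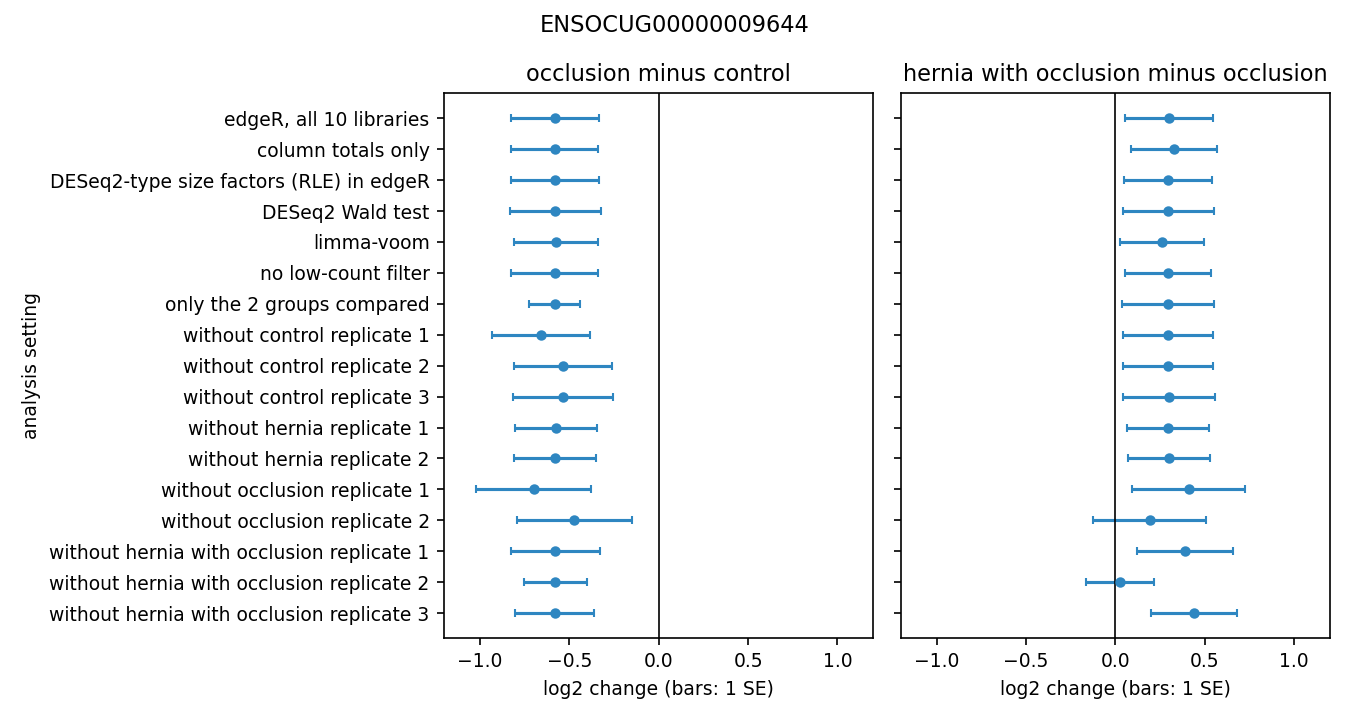
Log2 change of ENSOCUG00000009644 (horizontal axis, bars are 1 SE) for occlusion against control (left) and hernia with occlusion against occlusion (right) under each analysis setting (vertical axis). The left values lie between -0.70 and -0.47, and the right values between 0.03 and 0.44.

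Group means thus run from control (149 CPM) through hernia with occlusion (125 CPM) and occlusion (99.6 CPM) to hernia (30.3 CPM). Control and hernia with occlusion overlapped in range, as did hernia with occlusion and occlusion. The step from occlusion to hernia is the wide one, since the lowest of the 8 other libraries stood 2.56-fold above the higher hernia library. Those 8 libraries spanned 1.84-fold among themselves, with a median of 119 CPM. The first principal component of all other genes set occlusion replicate 1 and replicates 1 and 3 of hernia with occlusion apart, at 31.2 to 44.3 against -30.7 to -4.42 for the other libraries. In those 3 libraries the gene stood at 108, 110.0 and 96.9 CPM. The other 2 occluded libraries had 91.1 and 168 CPM, on either side of them.

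The gap was compared with that of every gene on the log2(CPM + 0.5) scale. Both hernia libraries lay below all 8 others in 629 of 10971 genes (5.73%), with a median gap of 1.06-fold. A gap of at least 2-fold was found in 3 genes (0.0273%), and that of ENSOCUG00000009644, 2.54-fold, was the widest of them. The gene was chosen for its low hernia level, so its place in this ranking is a description only. The next were ENSOCUG00000014800, at 2.11-fold, and ENSOCUG00000026015, at 2.01-fold. The gene just outside this limit, ENSOCUG00000017453, had a gap of 1.74-fold. In the opposite direction 815 genes (7.43%) had both hernia libraries above all others. There 2 genes (0.0182%) had a gap of at least 2-fold, ENSOCUG00000006106 at 3.38-fold and ENSOCUG00000023599 at 2.02-fold (r with ENSOCUG00000009644 of -0.54, and 0.36 over the 8 other libraries). Without hernia replicate 1 there were 9 genes below by at least 2-fold, and without hernia replicate 2 there were 10. With trimmed-mean scaling or DESeq2 size factors there were 2.

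**Figure D3:**
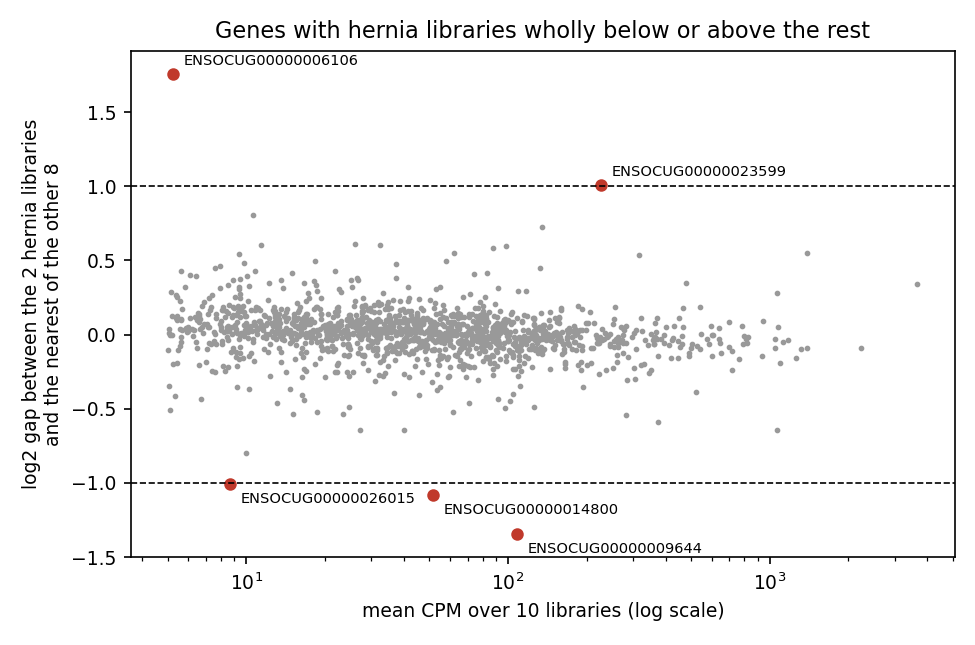
Log2 gap (vertical axis; below 0 where both hernia libraries are under all 8 others, above 0 where both are over them) against mean CPM over 10 libraries (horizontal axis, log scale); each point is a gene, and genes whose libraries overlap are not drawn. ENSOCUG00000009644, which was chosen for its low hernia level, has the widest gap downward, and the dashed lines mark 2-fold.

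ENSOCUG00000014800 shared the low hernia level but not the order of the other libraries. It had 10.1 and 12.1 CPM with a hernia, 49.3, 28.4 and 89.0 CPM in controls, 62.0 and 26.0 CPM with occlusion and 90.2, 46.5 and 105 CPM with both. Its highest library was replicate 3 of hernia with occlusion, in which ENSOCUG00000009644 was lowest of that group. Over the 8 libraries without hernia alone the Pearson correlation of the 2 genes was -0.14.

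Likeness to ENSOCUG00000009644 was measured as the Pearson correlation of log2(CPM + 0.5) over the 10 libraries. These are descriptions with no test: the 10 points share their libraries and totals, and the 2 hernia libraries lie apart from the rest, so the value over the 8 other libraries is given beside each. The hernia libraries are also the 2 farthest from the median of the gene. Over 10970 other genes the median r was -0.05, from -0.96 to 0.93. An r of at least 0.9 was reached by 9 genes (0.082%), and an r of -0.9 or lower also by 9. The count of genes at 0.9 or above was unsteady. It was 3 without hernia replicate 1, 15 without occlusion replicate 1 or replicate 2 of hernia with occlusion, and 16 without control 3. It was 17 without replicate 1 of hernia with occlusion, 18 without control 1 or control 2, and 25 without occlusion replicate 2 or replicate 3 of hernia with occlusion.

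Most of the genes with the highest r varied less. ENSOCUG00000009644 had an SD of 0.92 log2 units over the 10 libraries, where the median of other genes was 0.21. Of the 9 genes with an r of at least 0.9, 8 had an SD between 0.16 and 0.47 and stood 1.28-fold to 2.23-fold lower with a hernia than in controls. Among the 1033 other genes with an SD of at least 0.5, 1 gene had an r that high.

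That gene was ENSOCUG00000026015 (r = 0.91, Spearman's rho = 0.94, and r = 0.74 over the 8 libraries). It stood at 8.17, 21.6 and 8.55 CPM in controls, 2.81 and 2.47 CPM with a hernia, 6.98 and 8.0 CPM with occlusion, and 8.51, 13.2 and 6.15 CPM with both. Its hernia level was 3.83-fold below control, and its level with hernia and occlusion was 2.99-fold above hernia. As for ENSOCUG00000009644, control 2 and replicate 2 of hernia with occlusion were its highest libraries. Next came ENSOCUG00000000171 (r = 0.89, rho = 0.79, 0.53 over the 8), with 3.48 and 2.83 CPM in the hernia libraries and 4.88 to 9.55 CPM in the others.

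The other 6 of the 8 most similar genes with an SD of at least 0.5 had r between 0.76 and 0.82. ENSOCUG00000012045 was the most abundant in CPM, at 122 and 159.9 CPM with a hernia and 233 to 381 CPM in the others, yet over the 8 libraries its r was only 0.11. ENSOCUG00000017453 had 0.18 CPM in hernia replicate 1, from 3 counts, and 3.06 CPM in replicate 2, against 5.67 to 25.6 CPM elsewhere (r = 0.81, 0.60 over the 8). ENSOCUG00000012739 kept an r of 0.67 over the 8 libraries but overlapped, since hernia replicate 1 had 13.7 CPM and occlusion replicate 2 had 12.6 CPM. For ENSOCUG00000004161, ENSOCUG00000009395 and ENSOCUG00000017796 the r over the 8 libraries was 0.33, 0.21 and 0.11. Likeness to the gene among lungs without hernia alone was therefore closest for ENSOCUG00000026015 within this group of 8. Outside this group, r over the 8 libraries reached 0.98, and its median over all other genes was 0.004.

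The genes running opposite to it had a higher level with a hernia. ENSOCUG00000004978 (r = -0.92, rho = -0.84, -0.71 over the 8) had 14.4 and 13.2 CPM in the hernia libraries and 4.56 to 9.55 CPM elsewhere. ENSOCUG00000026036 (r = -0.87, -0.81 over the 8) had 11.1 and 14.5 CPM against 4.34 to 9.70 CPM. Its lowest library was replicate 2 of hernia with occlusion, in which ENSOCUG00000009644 was highest. ENSOCUG00000006106 (r = -0.86, -0.32 over the 8) had 35.7 and 9.08 CPM against 0.33 to 2.33 CPM. ENSOCUG00000022401 (r = -0.85, -0.40 over the 8) had 29.8 and 77.1 CPM with a hernia and 27.2 CPM in occlusion replicate 1, and 0.41 to 1.53 CPM in the remaining 7 libraries.

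**Figure D4:**
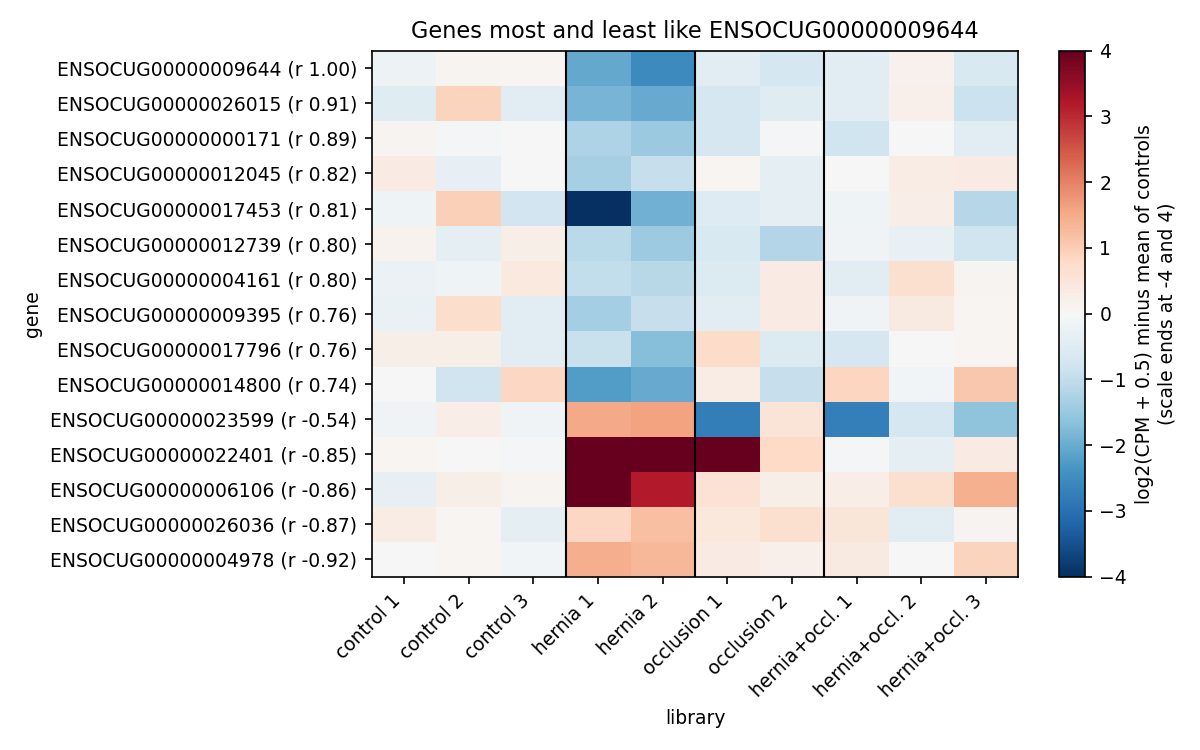
Log2(CPM + 0.5) minus the mean of the 3 controls (colour; the scale ends at -4 and 4) for ENSOCUG00000009644 and the genes most and least like it (rows, with r over 10 libraries) in each library (columns). The upper 10 rows are low in both hernia libraries, and the lower 5 rows are high in both.

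**Figure D5:**
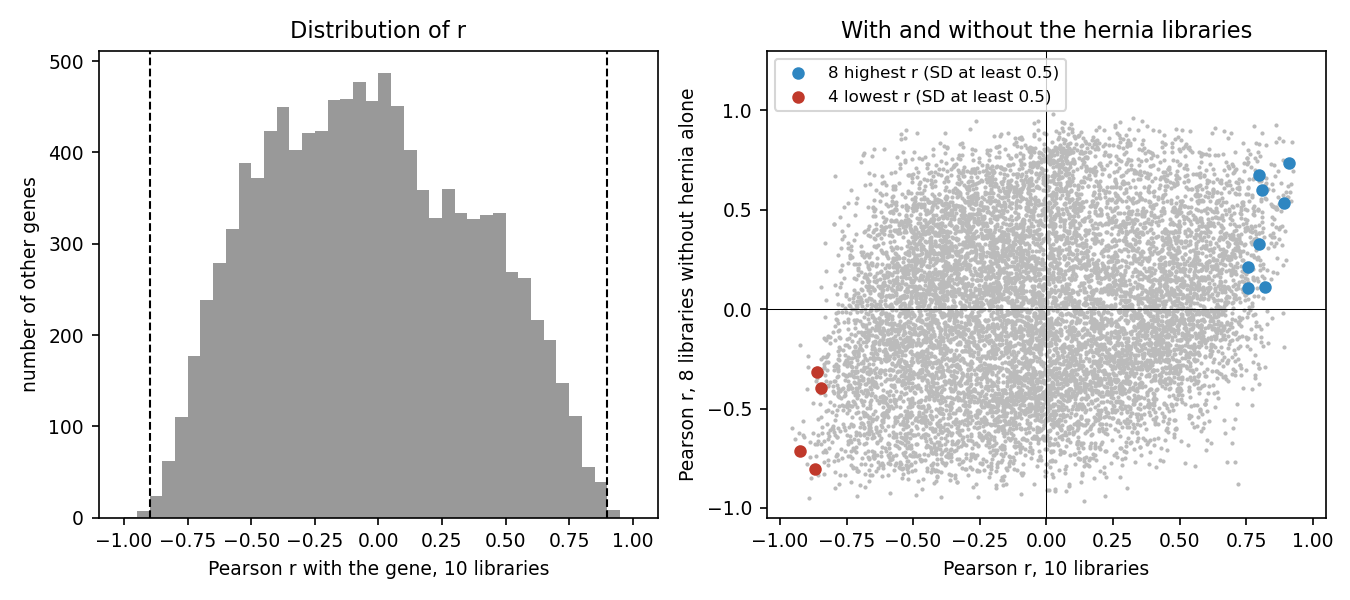
Left, number of other genes (vertical axis) by Pearson r with ENSOCUG00000009644 over 10 libraries (horizontal axis, dashed lines at -0.9 and 0.9); right, r over the 8 libraries without hernia alone (vertical axis) against r over 10 (horizontal axis), each grey point a gene. The 8 blue genes range from 0.11 to 0.74 on the vertical axis although all are at 0.76 or above on the horizontal one.

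Within groups the gene varied with an SD of 0.31 log2 units, against a median of 0.18, and 20.6% of other genes varied more. The group means, which chose the gene, were subtracted to see which genes shared these deviations. With 4 group means taken from 10 libraries, the deviations have 6 degrees of freedom, so a high r is reached more easily. Over all other genes the median r of deviations was -0.02, and 9 genes (0.082%) reached 0.9. The closest, among genes whose deviations had an SD of at least 0.3, was ENSOCUG00000026323. Its r was 0.93 for deviations and 0.93 over the 8 libraries without hernia alone. It had no low hernia level, at 27.4 and 14.6 CPM against 17.3, 17.2 and 17.3 CPM in controls, and its r over all 10 libraries was -0.05. The next 4 were ENSOCUG00000003680, ENSOCUG00000012841, ENSOCUG00000009455 and ENSOCUG00000017776, with r of 0.90, 0.88, 0.87 and 0.86 for deviations. Over the 8 libraries their r was lower, at 0.34, 0.38, 0.62 and 0.62 in the same order, and over all 10 it was -0.50, 0.03, 0.39 and -0.06. In all 5, replicate 2 was the highest and replicate 3 the lowest library of hernia with occlusion, as for ENSOCUG00000009644. These genes were chosen for shared deviations, which favours this order, so it adds no support of its own. None of the 5 was among the 8 genes with the highest r over all libraries.

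A further 4 genes, named after their values were seen, show how the pattern differs from others in these lungs. ENSOCUG00000009707 was also lower with a hernia than in controls, at 89.2 and 91.9 CPM against 139.5 to 156 CPM, but with hernia and occlusion it stood lower still, at 49.9 to 55.3 CPM. Its r with ENSOCUG00000009644 was 0.09 (0.28 over the 8 libraries). ENSOCUG00000025949 had an r of -0.83 (-0.36 over the 8), with 102 and 192 CPM in the hernia libraries, 73.0 CPM in occlusion replicate 1 and 0.17 to 2.5 CPM elsewhere. ENSOCUG00000001536 (r = -0.46, -0.60 over the 8) and ENSOCUG00000027099 (r = -0.27, but 0.60 over the 8) did not separate the hernia libraries from the other 8.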

How the data were processed

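The authors deposited 1 table with a whole number for each gene in each library. It is titled as CPM, yet the column sums differ (16383835 to 22239034), so its entries were taken as the authors' estimated counts. Named in the submitters' processing notes are kallisto 0.42.2.1, edgeR and the build OryCun2.0. How the estimates were summed, rounded and filtered is not stated in the labels or the file, and reads shared by similar genes may have been divided between them. None of the identifiers matched the 38822 genes of the RefSeq list, which belongs to another assembly (mOryCun1.1), so cell type marker lists could not be applied.

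CPM used column totals. The 13379 genes that reached 1 CPM in 2 or more libraries were tested with edgeR 4.0.16 (R 4.3.3): trimmed-mean scaling, a quasi-likelihood fit of 4 group means to all 10 libraries, and Benjamini-Hochberg adjustment over all genes, called under 0.05. Standard errors came from the change and its F statistic. Alternatives used DESeq2 1.42.0, limma-voom (limma 3.58.1), other scalings, filters and pseudocounts, and left out each library. The scripts were tested on simulated data.

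Among genes with a mean of at least 5 CPM, the rule named the 8 highest and 4 lowest r (SD at least 0.5), up to 8 and 4 genes with the widest gap below and above (at least 2-fold), and the 5 most similar in deviations from group means (SD at least 0.3). The gene, rules and comparisons were chosen with earlier results of these data known.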

Additional observations from a re-analysis of the deposited data

Results flagged for a closer look

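ENSOCUG00000009644 stood lower after occlusion in lungs without a hernia and higher after occlusion in lungs with one. Both occlusion libraries (108 and 91.1 CPM) lay below all 3 controls (128 to 162 CPM), as in 10.9% of genes, and that change did not pass (edgeR adjusted p = 0.852). All 3 libraries with hernia and occlusion (96.9 to 168 CPM) lay above both hernia libraries (35.5 and 25 CPM), as in 20.4% of genes. Title endings separate occlusion from control, and title stems separate hernia from hernia with occlusion. Neither difference can be told apart from what these labels mark. The occlusion difference with a hernia exceeded that without by 2.59 on the log2(CPM + 0.5) scale. This difference between groups was not tested, because the control, hernia and hernia with occlusion libraries were all used to choose the gene. Only the occlusion libraries were not part of that choice. The level after occlusion overlapped between lungs with and without a hernia.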

How the results depend on the processing

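Occlusion against control and hernia with occlusion against occlusion kept their direction and did not pass under any of 16 alternatives each. The log2 change ran from -0.70 to -0.47 and from 0.03 to 0.44 when single libraries were left out (a group left with 1 library is assumed to vary like the others; adjusted p from 0.584 to 0.999 and from 0.556 to 1.0). Hernia against control ran from -2.55 to -2.05, hernia with occlusion against hernia from 1.76 to 2.26, and hernia with occlusion against control from -0.52 to -0.12. The number of other genes with an r of at least 0.9 was 9, against 15 with trimmed-mean scaling and 14 with DESeq2 size factors, the last chosen after seeing the data. It ran from 3 to 25 with single libraries left out, and that of genes with hernia libraries at least 2-fold below the rest from 3 to 10. The latter was 3 with all libraries and 2 under either of these scalings. Without the 2 hernia libraries r turned from 0.74 to -0.14 for ENSOCUG00000014800 and from -0.54 to 0.36 for ENSOCUG00000023599. The sign also changed for 4 genes of weaker r: ENSOCUG00000003680 (-0.50 to 0.34), ENSOCUG00000017776 (-0.06 to 0.62), ENSOCUG00000027099 (-0.27 to 0.60) and ENSOCUG00000026323 (-0.05 to 0.93). The cause was not tested. Counting error is small for this gene, and the 2 to 3 libraries per group limit the precision.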
